A study of Mus musculus with 6 samples.

Results

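The 4 matrilin genes and 6 genes of small cartilage matrix proteins (Chad, Chadl, Snorc, Ucma, Scrg1 and Mia) were examined in primary chondrocytes of Slc39a13-KO and wild-type mice. The members are all probe sets that the array annotation pairs with 1 of these 10 genes. They came to 13 probe sets of 45101 on the array, and all 13 were among the 23294 probe sets bright enough to be tested. Slc39a13-KO (KO) mice carry a targeted allele in which a Neo cassette replaces the exons that hold the signature motif of this zinc transporter, and the wild-type cells served as controls. Both kinds of cells were freed with collagenase from the rib cages of newborn mice and cultured without a sort, so each array reads a mixed culture, in which fewer cells of a type and less RNA per cell cannot be told apart. There were 3 arrays of KO cells and 3 of wild-type cells. No source says whether the arrays of a group were separate animals or cultures, and the p-values below cover only array-to-array spread, which may be technical.

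Matrilins are secreted adaptor proteins built from von Willebrand factor A and epidermal growth factor modules and joined into oligomers by a coiled coil. They form filaments and link collagen fibrils with proteoglycans in the matrix around chondrocytes. Matn1 and Matn3 are largely restricted to cartilage, while Matn2 and Matn4 are found in many connective tissues, and mutations of the human MATN3 gene cause a form of epiphyseal dysplasia. Chondroadherin (Chad) and its relative Chadl are leucine-rich repeat proteins that bind collagen, Snorc is a membrane-bound proteoglycan of chondrocytes, and Ucma is a small secreted protein of growth plate cartilage that is modified by vitamin K-dependent carboxylation. Scrg1 is a small secreted protein that was found in scrapie-infected brain and is also made in developing cartilage. Mia is a small secreted protein of cartilage, first described in human melanoma cells.

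No member differed between KO and wild-type chondrocytes at an adjusted p under 0.05. By limma, with p-values adjusted by the Benjamini-Hochberg method across the 23294 tested probe sets, 0 of 13 were higher and 0 were lower, where 3.44% of all tested probe sets were higher and 3.37% were lower. An unadjusted p under 0.05 was found for 3 of the 13 members and for 22.6% of all tested probe sets. The log2 fold change, KO minus wild type, was above 0 for 5 and below 0 for 8 member probe sets. Its median was -0.10 over the members and 0.01 over all tested probe sets. The KO and wild-type arrays did not overlap for 2 members, Matn4 and 1 of the probe sets of Matn3, both with KO above, as was the case for 15.1% of all tested probe sets. For 0 members did all KO values lie below, against 13.7% of all. Within the KO group 1 array, KO replicate 1, carried the highest value of most members, and calls for Snorc and Scrg1 depended on it.

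KO replicate 1 also stood apart over the whole array. Its correlations with the other arrays were 0.94 to 0.95 over the tested probe sets, against 0.96 to 0.98 among the other 5 arrays, and its median signal was 108, against 80.7 to 88.4 on the others. Results are therefore given with and without it. Xist was high and Y-linked probe sets were low on KO replicate 2 and wild-type replicate 3, and the reverse held on the other 4 arrays, so both groups held both sexes. Slc39a13 itself had signals of 100.5, 196 and 165 on the KO arrays, against 901, 1081 and 991 on the wild-type arrays (log2 fold change -2.67, adjusted p = 0.000535 by limma). The sources do not tell if this probe set reads the removed exons. Over all tested probe sets, 802 were higher and 785 lower in KO cells, and 131 and 259 when each array was centred on its median.

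The stretches of DNA before the start sites of the members are shown for Matn3 and Matn4, whose KO and wild-type arrays did not overlap on a probe set, Ucma and Mia with their highest value on KO replicate 1, and Chad and Chadl, whose windows hold a motif match. RefSeq start sites were found for 7 of the 10 genes, with 8 windows, since Matn4 has 2 start sites. The genes not matched were Matn2, Snorc and Scrg1. The 250 bases before each start were searched on both strands for a TATA box (TATAAA) and for letters that SOX factors are known to bind, either ACAATG or else the related ACAAAG. The TATA box was found in 1 of the 8 member windows, that of Chad, and in 12.4% of all 32851 RefSeq windows. The first of the SOX motifs was found in 1, that of Chadl, and in 10.7% of all windows, and the other in 0 of the 8, where 16.5% of all windows hold it. Each line gives the 100 bases up to the start site, 5′ to 3′ on the gene's strand, on build GRCm38.p6, with motif matches in capitals. The capitals begin at position -28 before the Chad start and at position -90 before the Chadl start.
Matn3, chr12:8947829-8947928, plus strand: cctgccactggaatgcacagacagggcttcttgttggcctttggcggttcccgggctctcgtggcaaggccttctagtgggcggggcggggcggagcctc
Matn4, chr2:164405161-164405260, minus strand: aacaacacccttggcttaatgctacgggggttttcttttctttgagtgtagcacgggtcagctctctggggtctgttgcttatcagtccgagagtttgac
Matn4, chr2:164404819-164404918, minus strand: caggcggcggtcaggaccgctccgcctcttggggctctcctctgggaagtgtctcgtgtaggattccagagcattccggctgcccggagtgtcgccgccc
Chad, chr11:94564947-94565046, plus strand: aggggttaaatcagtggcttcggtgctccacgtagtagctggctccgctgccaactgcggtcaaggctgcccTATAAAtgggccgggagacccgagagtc
Chadl, chr15:81697288-81697387, minus strand: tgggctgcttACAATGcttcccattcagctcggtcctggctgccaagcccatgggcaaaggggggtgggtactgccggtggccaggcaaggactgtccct
Ucma, chr2:4976022-4976121, plus strand: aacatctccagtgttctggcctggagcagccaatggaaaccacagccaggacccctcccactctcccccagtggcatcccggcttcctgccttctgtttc
Mia, chr7:27181150-27181249, minus strand: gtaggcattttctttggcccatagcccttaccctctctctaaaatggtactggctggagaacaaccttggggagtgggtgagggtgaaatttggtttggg
The 250-base windows of the members held 50.4% (Mia) to 65.2% (Matn3 and Chadl) G and C, beside a median of 52.4% over all windows. A match is a description of letters in this window only.

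Matn4 had the largest fold change of the members. Its signal was 828, 446 and 354 on KO replicates 1, 2 and 3, against 222, 191 and 338 on wild-type replicates 1, 2 and 3. All KO values lay above all wild-type values, though KO replicate 3 and wild-type replicate 3 were close to each other. The means were 543 ± 251 in KO and 251 ± 77.4 in wild-type cells (SD, n = 3 arrays each), a log2 fold change of 1.04 with a 95% interval of 0.36 to 1.71, or 2.05-fold (adjusted p = 0.0726 from limma). It was the 1 member past a 2-fold criterion, met upward by 1.53% and downward by 1.93% of all tested probe sets, and by 0 members downward. The study's methods name 2-fold changes of gcRMA signals, while the deposited values used here have another form. The pass was narrow. The log2 fold change was 0.98 with a larger value added before the log2 and 0.94 with each array centred on its median, both under 2-fold. Leaving out KO replicate 1 gave 0.69 (adjusted p = 0.124), and without KO replicate 3 it was 1.29 (adjusted p = 0.0301, where 4.61% of all probe sets were higher and 5.19% lower).

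Matn3, the cartilage matrilin with a single A module, had log2 fold changes of opposite sign on its 2 probe sets, neither past the threshold. Probe set 1422148_at had signals of 4427, 2643 and 2833 on the KO arrays, against 2334, 2230.0 and 2410.1 on the wild-type arrays. The wild-type values lay close together, and all KO values were above them. The log2 fold change was 0.47 with a 95% interval of 0.10 to 0.84 (adjusted p = 0.130 from limma), and 0.23 without KO replicate 1 (adjusted p = 0.116). Probe set 1455948_x_at, of a class that can bind several transcripts, had 2201, 1931 and 2159 on the KO arrays, against 3887, 2468 and 1776 on the wild-type arrays. Here the KO values lay close together within the range of the wild-type values, and wild-type replicate 1 was the highest. Its log2 fold change was -0.30 with a 95% interval of -0.80 to 0.20 (adjusted p = 0.473), and it was 0.00 to 2 decimals without wild-type replicate 1 (adjusted p = 0.999) and -0.56 without wild-type replicate 3 (adjusted p = 0.132). With the mean of both probe sets Matn3 had 0.08 (adjusted p = 0.783).

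Matn1, the first described cartilage matrilin, had signals of 549.8, 444 and 331 on the KO arrays, against 487, 698 and 554 on the wild-type arrays. The groups overlapped, with KO replicate 3 the lowest and wild-type replicate 2 the highest of the 6. The means were 442 ± 109.5 in KO and 579.7 ± 107.6 in wild-type cells (SD, n = 3 arrays each), a log2 fold change of -0.40 with a 95% interval of -0.84 to 0.04 (adjusted p = 0.262 from limma). Leaving out KO replicate 1 gave -0.57 (adjusted p = 0.10), leaving out KO replicate 3 gave -0.21 (adjusted p = 0.484) and leaving out wild-type replicate 2 gave -0.26 (adjusted p = 0.599).

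Matn2, the more widely expressed matrilin, had its lowest value on KO replicate 1 on both of its probe sets. Probe set 1419442_at had 308, 559 and 508 on the KO arrays, against 486, 456 and 493 on the wild-type arrays, and KO replicates 2 and 3 lay above all wild-type arrays. Probe set 1455978_a_at had 306, 499.9 and 562 on the KO arrays, against 669.8, 763 and 522 on the wild-type arrays. Only KO replicate 3 reached into the wild-type range there. The log2 fold changes were -0.10 (95% interval -0.55 to 0.35, adjusted p = 0.802 from limma) and -0.53 (95% interval -1.03 to -0.04, adjusted p = 0.188). When KO replicate 1 was left out they were 0.15 (adjusted p = 0.485) and -0.28 (adjusted p = 0.351), and the first had changed its sign.

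Chad and Chadl, the leucine-rich repeat pair, overlapped between the groups. Chad, which also binds an integrin on chondrocytes, had signals of 269.6, 222 and 384 on the KO arrays, against 407, 408 and 293 on the wild-type arrays. Wild-type replicate 3 fell among the KO values and KO replicate 3 among those of wild type. Chad had a log2 fold change of -0.35 with a 95% interval of -0.84 to 0.14 (adjusted p = 0.378 from limma), -0.31 without KO replicate 1, -0.18 without KO replicate 2 and -0.56 without KO replicate 3. Chadl had 437, 287 and 206 on the KO arrays, against 350.4, 326 and 281 on the wild-type arrays. Its highest and its lowest value were both on KO arrays. Its log2 fold change was -0.10 with a 95% interval of -0.64 to 0.44 (adjusted p = 0.845), -0.37 without KO replicate 1 (adjusted p = 0.276) and 0.15 without KO replicate 3.

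**Figure D1:**
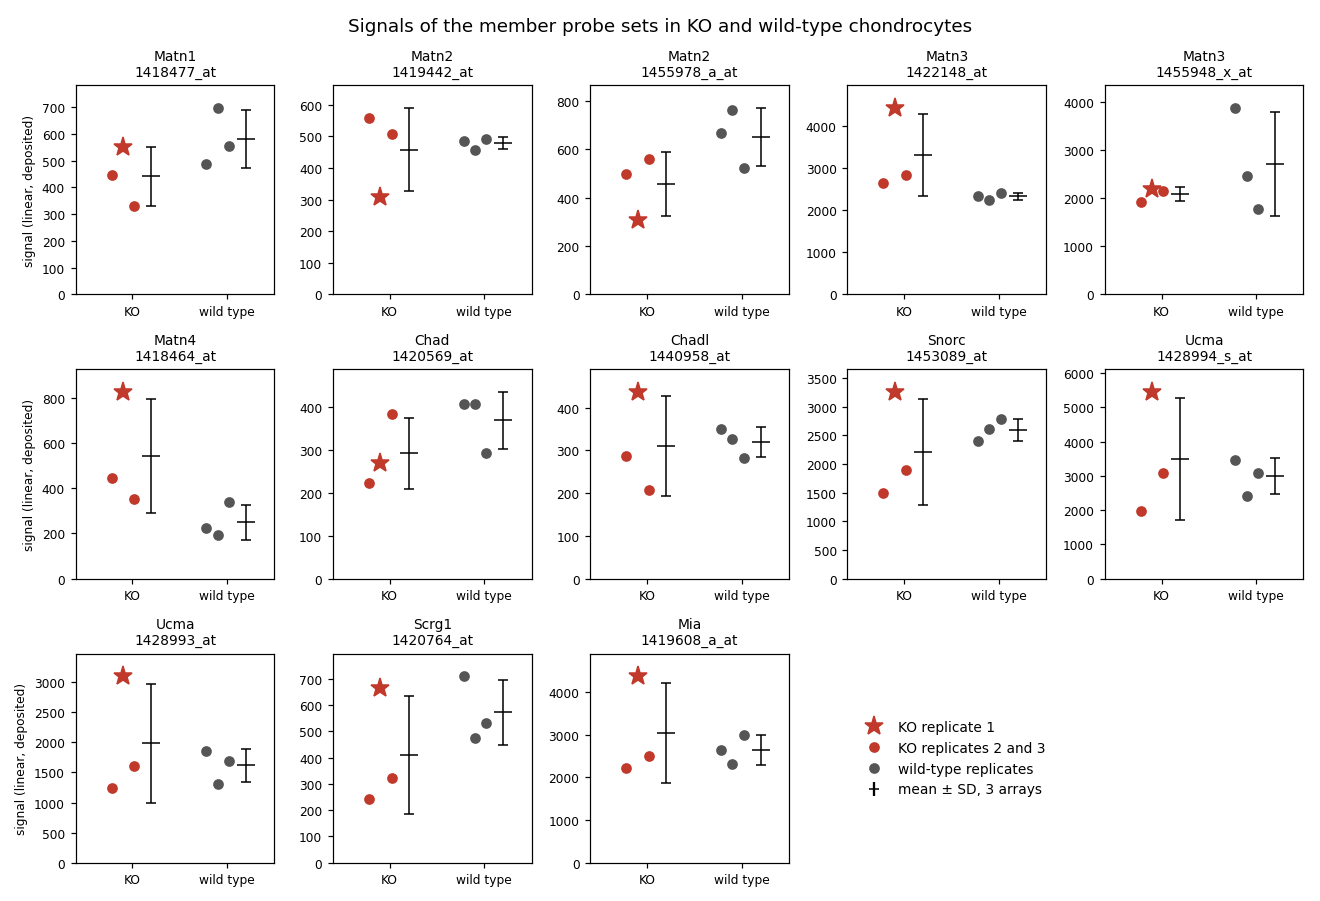
Deposited signals (linear scale, y axis from 0 in each panel) of the 13 member probe sets on 3 KO arrays (red, KO replicate 1 as a star) and 3 wild-type arrays (gray), with the mean and SD of each group beside the points. The groups are apart for Matn4 and Matn3 1422148_at, and the star is the highest of the 6 arrays in 7 panels and the lowest in both panels of Matn2.

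Snorc and Scrg1 were lower on KO replicates 2 and 3 than on every wild-type array, but not on KO replicate 1. Snorc, the membrane proteoglycan, had signals of 3258, 1495 and 1891 on the KO arrays, against 2398, 2617 and 2780.5 on the wild-type arrays. Its change was -0.31 on the log2 scale with a 95% interval of -0.81 to 0.20 (adjusted p = 0.466 from limma). Over the other 5 arrays it was -0.62 with a 95% interval of -0.88 to -0.37, or 0.65-fold (adjusted p = 0.0134). Scrg1 had 663, 242 and 321 on the KO arrays, against 710.2, 475 and 532 on the wild-type arrays. KO replicate 1 thus lay within the range of the wild-type arrays, and the other KO arrays below it. Scrg1 had a log2 fold change of -0.59 with a 95% interval of -1.28 to 0.11 (adjusted p = 0.301), and -1.0 with a 95% interval of -1.43 to -0.56, or 0.502-fold, without KO replicate 1 (adjusted p = 0.0178). With that array left out these 2 of 13 members were lower and 0 were higher, where 3.45% and 3.36% of all tested probe sets were. The calls rest on 2 KO arrays, and leaving out KO replicate 2 instead gave log2 fold changes of -0.06 for Snorc (adjusted p = 0.884) and -0.28 for Scrg1 (adjusted p = 0.613).

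Ucma and Mia had group means that differed little, with the highest value of the 6 arrays on KO replicate 1. Ucma, the carboxylated growth plate protein, had 5457, 1962 and 3078 on probe set 1428994_s_at in KO cells, against 3472, 2423 and 3072 in wild-type cells. On probe set 1428993_at it had 3099.8, 1239.5 and 1598 in KO cells, against 1849, 1311 and 1689 in wild-type cells. Both probe sets placed KO replicate 1 first and KO replicate 2 last. The log2 fold changes were 0.12 (95% interval -0.55 to 0.78, adjusted p = 0.852 from limma) and 0.19 (95% interval -0.43 to 0.82, adjusted p = 0.726). With KO replicates 2 and 3 alone they were -0.27 and -0.18 (adjusted p = 0.457 and 0.533). Mia had 4375, 2209 and 2509 on the KO arrays, against 2629, 2305 and 2988 on the wild-type arrays. Mia had a log2 fold change of 0.14 with a 95% interval of -0.34 to 0.62 (adjusted p = 0.747), and -0.16 without KO replicate 1 (adjusted p = 0.459).

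**Figure D2:**
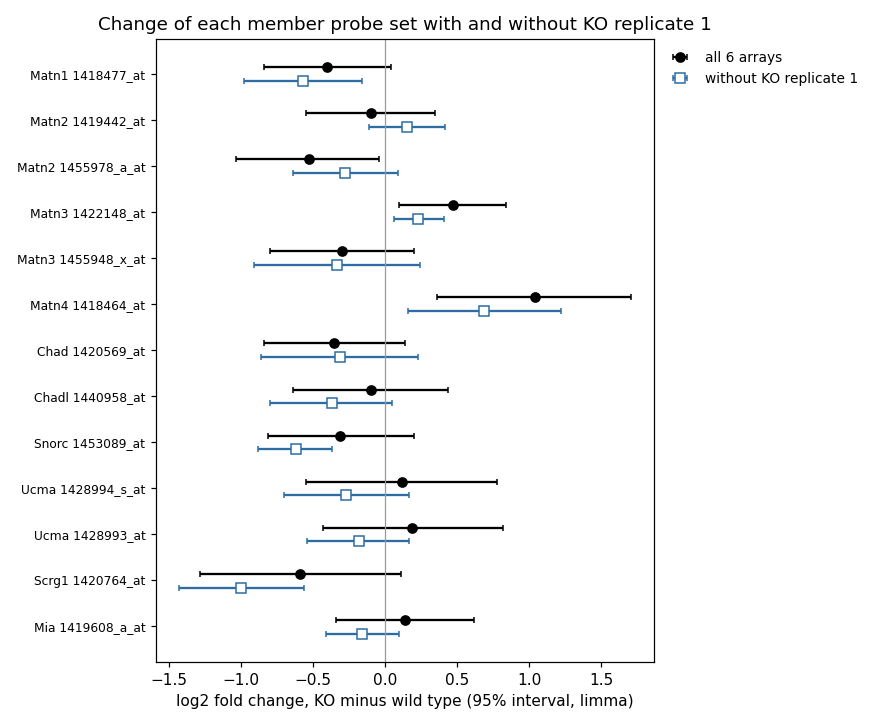
Log2 fold change, KO minus wild type, of each member probe set (x axis) with its 95% interval from limma, for all 6 arrays (filled circles) and without KO replicate 1 (open squares). With all arrays the intervals that leave out 0 are those of Matn4, Matn3 1422148_at and Matn2 1455978_a_at, before adjustment. Without KO replicate 1 those of Snorc (-0.88 to -0.37) and Scrg1 (-1.43 to -0.56) lie farthest from 0.

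Most members had a wide spread among the KO arrays, with KO replicate 1 at 1 end of it. KO replicate 1 was the highest of the 6 arrays for 7 of 13 member probe sets, where it was the highest for 29.3% of all tested probe sets. It was the lowest for 2 of 13, both of Matn2, against 24.8% of all. It was the highest of the 3 KO arrays for 10 of 13, against 40.5% of all. KO replicate 2 was the lowest of the 6 arrays for 6 of 13, against 16.7% of all. On the log2 scale KO replicate 1 lay above the mean of KO replicates 2 and 3 by 1.23 for Scrg1, by 1.15 and 1.13 for Ucma, by 1.04 for Matn4, by 0.95 for Snorc and by 0.89 for Mia. In these members KO replicate 1 thus held 1.86-fold (Mia) to 2.34-fold (Scrg1) the level of the other KO arrays. The exceptions were Matn2, with -0.77 and -0.78, and Chad, with -0.11. The median of this offset was 0.82 over the members and 0.03 over all tested probe sets.

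The SD of the log2 values over the 3 KO arrays had a median of 0.52 over the members, beside 0.22 over all tested probe sets. Over the 3 wild-type arrays these medians were 0.26 and 0.14. Of the 13 member probe sets, 12 varied more among KO than among wild-type arrays, where 68.9% of all tested probe sets did, and the exception was Matn3 1455948_x_at. The median SD of the members was smaller without KO replicate 1. For KO replicates 2 and 3 alone the median SD was 0.24 over the members and 0.15 over all tested probe sets, and 8 of 13 members, against 50.9% of all, varied more than among wild-type arrays. An SD of 2 arrays and one of 3 are not alike, so these values cannot show how much of the excess rested on KO replicate 1. The median standard error of the log2 fold change was 0.22 for the members and 0.17 for all tested probe sets, so a member needed a larger change to pass than a typical probe set. Over the 6 arrays, the log2 values of the brightest probe sets of Ucma and Mia had a Pearson r of 0.93 and those of Snorc and Scrg1 one of 0.88. Matn4 and the brightest probe set of Matn2 had an r of -0.99. That value does not cover the other probe set of Matn2. There KO replicates 2 and 3 lay above all wild-type arrays, as they did for Matn4. These r values describe 6 arrays that share KO replicate 1, and carry no test.

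**Figure D3:**
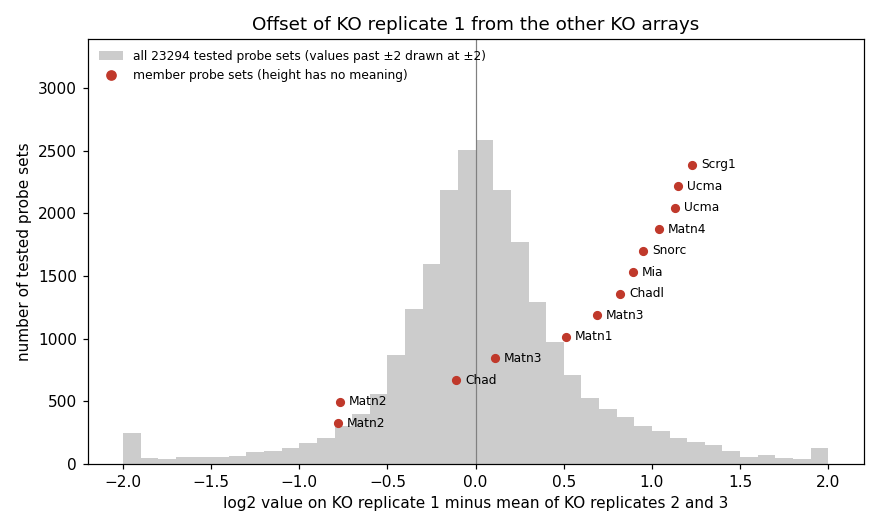
Log2 value on KO replicate 1 minus the mean of KO replicates 2 and 3 (x axis), as a histogram of the 23294 tested probe sets (gray, y axis, number of probe sets) and as points for the 13 member probe sets (red, at arbitrary heights). Most members lie to the right, up to 1.23 for Scrg1, while both probe sets of Matn2 lie to the left near -0.78.

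Genes of the fibrils and aggregates that matrilins bind were mostly higher in KO chondrocytes on the same arrays. Of the 18 partner genes tested, of 19 listed, 11 rose and 1 fell in KO chondrocytes by limma, with a median log2 fold change of 0.51, while of the 10 member genes, each taken by its brightest probe set, 0 rose and 0 fell, with a median of -0.20. Of all tested probe sets 3.44% were higher and 3.37% lower. The difference between the lists was not tested, and the partner counts were repeated only without KO replicate 1, not in the other settings. Fmod (fibromodulin, which binds collagen fibrils), Acan (aggrecan), Col11a2 (a chain of type 11 collagen) and Comp (a pentameric protein that binds collagens and matrilins) had log2 fold changes of 1.13, 0.91, 0.91 and 0.76. Col2a1, the main fibril collagen of cartilage, had 0.50 (adjusted p = 0.0981 by limma). The partner that fell was Col9a3, a chain of the type 9 collagen to which matrilins bind, with -0.50 (adjusted p = 0.0183). With KO replicate 1 left out, 10 partners were higher and 1 was lower, with a median of 0.38, while 0 of the 10 members were higher and 2 were lower, with a median of -0.29. In that setting 3.36% of all tested probe sets were higher and 3.45% lower. KO replicate 1 was the highest of 6 arrays for 14 of the 18 partners too, with a median offset from the other KO arrays of 0.33, against 0.86 for the 10 members.

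Of 10 tested genes of other small secreted cartilage proteins, 1 rose and 0 fell, with a median of 0.13. The 1 that rose was Omd (osteomodulin, a leucine-rich proteoglycan), by 0.63 on the log2 scale (adjusted p = 0.0129 by limma). Cytl1, a small secreted protein of cartilage, did not pass with all arrays and passed without KO replicate 1, and the other arrays were not left out in turn for it. It had 5441, 3051 and 2620.0 on the KO arrays, against 4107, 4201 and 5674 on the wild-type arrays, and its log2 fold change was -0.39 with all arrays (adjusted p = 0.367 by limma), against -0.70 without KO replicate 1 (adjusted p = 0.0188). Of the relatives of Mia, Mia3, which helps to export large collagens, was tested, with 0.02 (adjusted p = 0.937), and Mia2 and Otor were too dim to test.

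**Figure D4:**
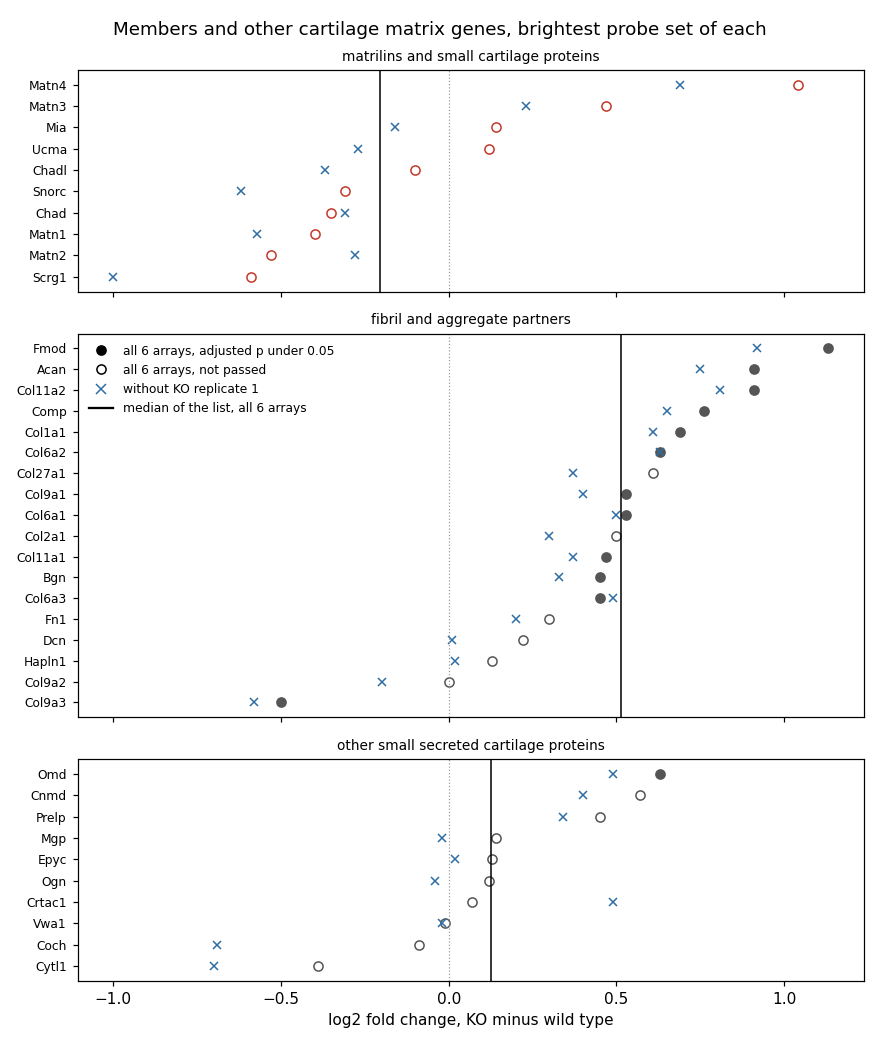
Log2 fold change, KO minus wild type (x axis), of the brightest probe set of each tested gene, in the 10 members (red), 18 fibril and aggregate partners and 10 other small secreted cartilage proteins (gray). Filled circles passed the adjusted p with all 6 arrays, open circles did not, crosses are values without KO replicate 1 and vertical lines are list medians with all 6 arrays. The medians are -0.20, 0.51 and 0.13, and no member circle is filled.

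Of 5 tested regulators of chondrocytes, 1 rose, Sox5 with 0.79, and 0 fell. Sox9, the factor that specifies chondrocytes and acts on several of the member genes, had 0.04 (adjusted p = 0.849 from limma). Of 8 tested genes that mark stages of growth plate chondrocytes, 3 rose and 1 fell. Those with the largest changes were Col10a1, the collagen of hypertrophic cartilage, with -1.22, and Pth1r, which binds parathyroid hormone-related protein, with 1.17. Ibsp and Grem1 had 1.07 and 0.58. Of the members, Ucma is known from the less mature zones of the growth plate and Matn1 from its maturing zones.

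Markers of some other cell types moved with the groups on the same arrays. The summed signal of the 6 chondrocyte markers was 85987 to 122279 on the KO arrays, with the highest sum on KO replicate 1, against 60619 to 73482 on the wild-type arrays. Most of each sum was Col2a1 and Col9a1. Of these 6, 3 rose (Acan, Col9a1 and Col11a2) and 0 fell by limma, while Col2a1, Hapln1 (0.13) and Sox9 did not pass. All of them except Sox9 are also counted among the partner genes above. For 11 markers of fibroblasts and perichondrium the sum was 66803 to 82304 on the KO arrays, against 46442 to 57031 on the wild-type arrays. Most of each sum was matrix genes that rose (Col1a1, Col1a2, Col3a1 and Postn). Of the 9 tested 6 rose and 2 fell (Pdgfra -0.51 and Thy1 -0.49), or 5 and 2 without KO replicate 1. For 5 osteoblast markers the sum was 10941 to 16633 on the KO arrays, against 6907 to 9694 on the wild-type arrays. Most of each sum was Col1a1, which is also on the fibroblast and partner lists. Of the 4 tested 3 rose and 0 fell, with a median of 0.72 (0.80 without KO replicate 1). With all arrays Sp7 did not pass (adjusted p = 0.157 by limma). Without KO replicate 1 Sp7 passed (0.0473) and Col1a1 did not (0.0821). For 10 mesothelial markers the sum was 702 to 1290 on the KO arrays, against 4734 to 7856 on the wild-type arrays, and of the 9 tested 8 fell, with a median of -2.63 (Krt19 -3.60, Upk3b -3.09 and Msln -3.09). For 7 muscle markers the sum was 2222 to 2661 on the KO arrays, against 2070 to 2106 on the wild-type arrays. Of the 5 tested 1 rose (Tnnt3, 1.17) and 1 fell (Acta1, -0.72), with a median of -0.63. Tnnt3 made up most of the sum on each KO array, with 1845, 1620 and 1343, against 606, 712 and 804 on the wild-type arrays. Macrophage markers summed to 573 to 868 on the KO arrays, against 631 to 834 on the wild-type arrays, and endothelial markers to 172 to 360 on the KO arrays, against 143 to 278 on the wild-type arrays, with 0 of 5 and 0 of 1 tested genes past the threshold. Their part in the values of the members was not tested. Markers of Schwann cells and melanocytes, other known sources of Scrg1 and Mia, summed to 1791 to 2248 on the KO arrays, against 1998 to 2201 on the wild-type arrays. Most of each sum was S100b, which chondrocytes also express, with a log2 fold change of -0.01. Of the 4 tested 0 rose and 0 fell, and Mlana, Dct, Tyrp1 and Pmel were too dim to test.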

How the data were processed

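Total RNA of primary chondrocytes was labeled by a one-cycle method and hybridized to Affymetrix mouse genome arrays, 1 per sample. The intensities deposited by the authors are on a linear scale. The authors' processing notes name MAS5, with no version, and their methods name gcRMA. Each array has a trimmed mean of 500.003 without its lowest and highest 2% of values, while other quantiles differ between arrays, as MAS5 scaling leaves them. Values were taken as log2(signal + 7.96), with the 10th percentile of the signals as pseudocount, which understates the fold changes of dim probe sets. Probe sets with several symbols (932) or none (9211), controls, and those with a mean under the 40th percentile (5.80 on the log2 scale) were left out, which left 23294. KO and wild-type arrays were compared by limma 3.58.1 under R 4.3.3, using lmFit and a trended eBayes and no covariate, and Benjamini-Hochberg adjustment ran over all of them. Scripts were tested on simulated data. Array detection calls were not used here, and 6 arrays limit the precision.

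The members and lists were chosen with earlier results of these data known. All members are named, and from other lists up to 4 genes past the threshold, with Col2a1, Acan and Sox9. For likeness these were the 3 genes with the highest Pearson r. Cytl1, Col9a3, Mia3, Col9a1, Hapln1 and the fibroblast, osteoblast, muscle, Schwann cell and melanocyte markers were named after their values were seen.

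Alternatives were another filter or none, 2 other pseudocounts, quantile normalization, median centring, 1 probe set or the mean per gene, no probe sets of classes that can bind several transcripts, a replicate block, no trend, sex read from Xist and Y-linked probe sets as a covariate, the 2-fold criterion and each array left out in turn.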

Additional observations from a re-analysis of the deposited data

How the results depend on the processing

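With all arrays, 0 member probe sets were called higher or lower by limma in any of the 12 settings that kept all 6 arrays and the adjusted p. Without KO replicate 1, 2 were called lower (Snorc and Scrg1), and without KO replicate 3, 1 was called higher (Matn4). By the 2-fold criterion 1 was higher (Matn4), at 1.04. Matn4 was under 2-fold with the larger pseudocount (0.98), with median centring (0.94) and without wild-type replicate 1 (0.97) or 2 (0.87). Over the settings that leave out 1 array, calls ranged from 0 to 1 higher and from 0 to 2 lower. The log2 fold change of Matn4 ranged from 0.69 to 1.29, that of Snorc from -0.62 to -0.06 and that of Scrg1 from -1.0 to -0.28 over these settings. Over the same settings the sign turned without KO replicate 1 or, for Chadl, KO replicate 3 (for Ucma 1428994_s_at also without wild-type replicate 2, to -0.03). These were Matn2 1419442_at (-0.27 to 0.15), Chadl (-0.37 to 0.15), Ucma 1428994_s_at (-0.27 to 0.47), Ucma 1428993_at (-0.18 to 0.47) and Mia (-0.16 to 0.33). For Matn3 1455948_x_at it turned with the mean of the 2 probe sets (0.08). Leaving out 1 array gave Matn1 -0.57 to -0.21, Chad -0.56 to -0.18, Matn2 1455978_a_at -0.71 to -0.28 and Matn3 1422148_at 0.23 to 0.61. The other settings kept each direction. Without KO replicate 1, an alternative chosen for the lists after seeing the data, the other small secreted proteins had 1 gene lower (0 with all arrays), macrophage markers 1 lower (0), muscle markers 2 lower (1) and fibroblast markers 5 higher (6).

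The labels do not say whether the replicate numbers pair the arrays. Over all tested probe sets the correlations of same-numbered KO and wild-type arrays, as deviations from the group means, were 0.033, 0.015 and -0.054. Those of arrays with unlike numbers ranged from -0.058 to 0.044. Values over the whole array cannot decide on a pairing for single members. A replicate block lowered the standard error from 0.31 to 0.18 for Scrg1 (adjusted p = 0.127 by limma) and from 0.30 to 0.17 for Ucma 1428994_s_at. For Chad it rose from 0.22 to 0.24. With the replicate block 0 members were called, the log2 fold changes stayed as they were, the lowest adjusted p of a member was 0.113 for Matn4, and 415 probe sets were higher and 422 lower over the whole array. Without limma's trend these were 47 and 61, with the mean per gene 462 and 417, and without probe sets of classes that can bind several transcripts 581 and 521. Leaving out 1 array gave 248 (without wild-type replicate 2) to 1074 (without KO replicate 3) higher and 188 to 1209 lower. The precision rests on 3 arrays a group, with a median standard error of 0.22 for a member's log2 fold change.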

Other observations

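Over the 6 arrays, the genes whose log2 values had the highest Pearson r with the brightest probe set of each member were the following. For Matn1 they were Ptms, Tomm40l and Exoc4, with r of 0.995, 0.988 and 0.986. Matn2 was most like Plpp1 (0.991), Zfyve26 (0.990) and Rmc1 (0.986). For Matn3 they were St13, Micos13 and Egr2, with r of 0.997, 0.996 and 0.994. Matn4 was most like Stard5 (0.996), Slco4a1 (0.994) and Fgfr1op2 (0.993). For Chad they were Rbm18, Eef1akmt2 and 2310061N02Rik, with r of 0.990, 0.984 and 0.983. Chadl was most like Hspb2 (0.993), Patl1 (0.993) and Mrps6 (0.989). For Snorc they were Slx1b, Ecscr and E130309D02Rik, with r of 0.994, 0.987 and 0.987. Ucma was most like Kcng4 (0.995), Rab38 (0.993) and Gm6211 (0.992). For Scrg1 they were C2cd2l, Tcea3 and 9430065F17Rik, with r of 0.997, 0.996 and 0.993. Mia was most like Lyrm2 (0.992), Klf17 (0.987) and Lin7b (0.985). None of these genes is on the lists of cartilage genes or markers above. With 12715 genes ranked over 6 arrays, these values describe a ranking only.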
